A study of Ovis aries with 18 samples.

Results

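Single nucleotide polymorphisms (SNPs) with strong allelic imbalance (AI) and clean genotype calls were examined in RNA-Seq data from fetal sheep perirenal adipose tissue (PRAT). AI was measured as the share of reads carrying the reference allele, summed over all animals called heterozygous at a SNP. A SNP was chosen where it lay on an autosome, was called heterozygous in 5 to 14 animals, had no other SNP of the table within 5 bp, and had a summed reference share of at least 0.65 or at most 0.35. In addition, animals called homozygous with at least 20 reads had to carry on average less than 1% of the other allele, and at least 1 such animal had to exist. Of 24355 SNPs in 5810 genes, 395 SNPs in 259 genes met the rule and are called members below.

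The tissue came from 18 wild type merino fetuses without any treatment at day 132 of gestation, 16 female and 2 male, sired by the same ram and carried by unrelated ewes. All animals form 1 group, so that every contrast below is between alleles, genotypes or SNPs. Each animal contributed 1 library with between 2970824 (RS902) and 5334585 (RS917) allele reads at the SNPs of the table. Levels are given as CPM, the reads at a SNP per 1000000 SNP reads of the library. Of 12 brown adipocyte markers, 8 had SNPs in the table. The mean over their 44 SNPs had a median of 333 CPM between animals. Among these markers, UCP1, the uncoupling protein of brown fat, had a mean of 2477 CPM over 5 SNPs. These are part of the 44, so that the mean is not the level of each marker. The same measure was 2059 CPM for adipocyte, 93.5 for erythroid and 64.1 for endothelial markers. It was 11.5 CPM for adrenal cortex and 7.83 CPM for macrophage markers. The median over all autosomal SNPs was 15.3 CPM, which is not the same measure as a mean over marker SNPs.

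In a heterozygous animal both alleles share the same cell and the same trans-acting factors. A departure of the 2 alleles from equal representation in mRNA is therefore commonly used to look for cis-acting differences such as promoter, splicing or mRNA stability variants, and for parent-of-origin silencing (imprinting). Perirenal fat of the late sheep fetus is rich in brown adipocytes, which oxidise fuel in mitochondria to make heat around birth. A share from RNA reads can also depart from equality because reads of one allele are mapped or called less well, and this matters most where a gene has near-identical copies. For that reason, total reads by genotype and reads at other SNPs of the same gene are also given for many of the members named below.

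The steps of the rule left 24111 autosomal SNPs, of which 21502 were heterozygous in 5 to 14 animals, 20208 also had no near SNP, and 19831 also passed both conditions on homozygous animals. The share limits then kept 395 of these 19831 clean SNPs (1.99%), and the 19436 inside the limits are the comparison set. Without the other conditions 1622 autosomal SNPs were past the share limits, and 754 of those were called heterozygous in 15 or more animals. Homozygous animals with enough reads numbered at least 2 at every member, with a median of 9, and the other allele made up a median of 0.0361% of their reads. At 184 members those animals had no read of the other allele at all.

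**Figure D1:**
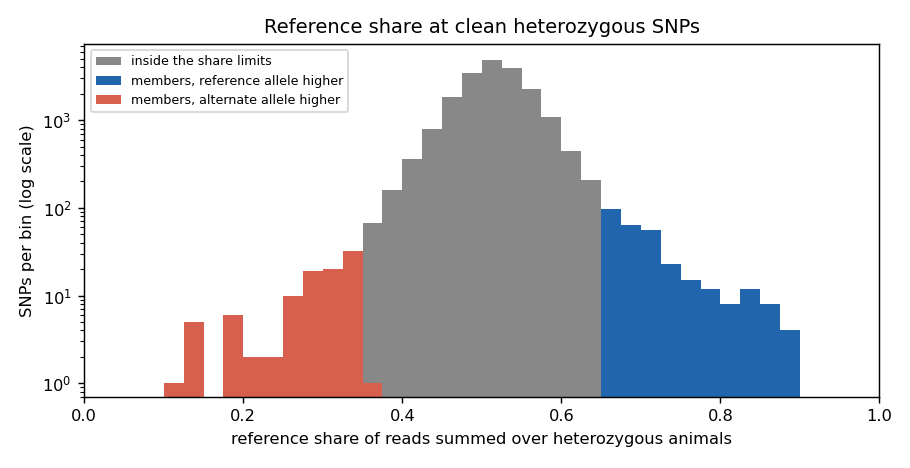
Number of clean heterozygous SNPs (log axis) by the reference share of the reads summed over heterozygous animals, in bins of equal width. The 297 members with the reference allele higher are blue, the 98 with the alternate allele higher are red, and the 19436 SNPs inside the limits are grey.

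Members with more reads of the reference allele numbered 297 (75.2%), and 98 had more reads of the alternate allele. Inside the limits, the reference allele was higher at 64.8% of the clean SNPs. Members just inside the upper limit were in CDK5RAP2 (share 0.65 from 143 reference and 77 alternate reads) and OBSL1 (0.651), and the nearest SNPs outside were in FBLN2 and NGLY1 (0.649985 and 0.649753). At the lower limit, SLC22A4 (0.35) and WDR46 (0.349693) were just inside. Another SNP of WDR46 and one of ERAP1 (0.350126 and 0.350225) were just outside. These values chose the members and are given as a description.

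Members resembled the other clean SNPs in the shares of synonymous, missense and transition SNPs, and less so in other features. Synonymous SNPs made up 61.3% of members and 63.1% of the clean SNPs inside the limits, and missense SNPs made up 18.2% and 18.3%. SNPs of the 3′ untranslated region made up 14.2% and 12.8%. The 5′ untranslated region held 15 members (3.80%) against 1.16% of the comparison set, and 21 members (5.32%) lay in a splice region against 1.84%. No member was a stop or splice site SNP, of 10 such clean SNPs. Transitions made up 80.0% of members and 82.3% of the comparison set. Members were heterozygous in a median of 9 animals, as was the comparison set, a number that the rule limits to 5 to 14 in both. They had a median of 85.7 reads per heterozygous animal against 65.0. Read number is not independent of the share, because the study kept only SNPs with a minimum number of reads of both alleles. Unequal shares need more total reads to meet that filter. These proportions are described without a test, because neighbouring SNPs share animals and reads: 78 members had another member within 100 bp.

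The members farthest from an equal share are shown first, because they carry the largest contrast between alleles. In the notation used here, the reference base stands before the position (Oar v3.1) and the alternate base after it. The largest share was at A51794111G on chromosome 19, a missense SNP of MAP4, a microtubule-associated protein. The reference allele made up 0.836, 0.911, 0.920, 0.914 and 0.892 of the reads in RS905, RS920, RS929, RS940 and RS969. At T40474660C on chromosome 21, in POLR2G (a subunit of RNA polymerase II), the reference share ranged from 0.858 through a median of 0.890 to 0.923 in 11 animals. All heterozygous animals of both genes were on the same side.

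CYCS encodes cytochrome c, the electron carrier between respiratory complexes III and IV, and its member A70703303G (chromosome 4) rested on 24099 reference and 3135 alternate reads. The reference share lay between 0.873 and 0.893 in the 10 heterozygous animals (mean 0.885 ± 0.006, SD). The spread between these animals was no larger than counting error: the dispersion, which is the Pearson chi-square of the allele reads over animals divided by its degrees of freedom and near 1 for pure counting error, was 0.798. SRSF4 (a splicing factor, chromosome 2, 0.843 to 0.906), ZMYND11 (a chromatin reader, chromosome 13, 0.750 to 0.908) and ATAD1 (an ATPase of the mitochondrial outer membrane, chromosome 22, 0.753 to 0.923) were also reference-high in every heterozygous animal. Their median total reads in reference homozygotes and heterozygotes were 52.0 and 52.0 CPM (SRSF4), 24.7 and 28.4 CPM (ZMYND11), and 32.0 and 30.5 CPM (ATAD1). At other SNPs the medians were 87.6 and 80.4 CPM for ZMYND11 and 77.0 and 80.1 CPM for ATAD1. SRSF4 had no other SNP to compare.

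The alternate allele was higher at 2 members in the 5′ untranslated region of ACSM1, which encodes a mitochondrial medium-chain acyl-CoA synthetase. At C18189381A on chromosome 24 the alternate share was 0.791 in the lowest, 0.886 in the median and 0.935 in the highest of 7 heterozygous animals. Total reads by genotype passed at neither ACSM1 member in the linear model described below (adjusted p of 0.192 and 0.156). Neither had other SNPs of the gene to compare. FBP2, the muscle-type fructose bisphosphatase of gluconeogenesis, had 2 alternate-high members on chromosome 2. In 7 heterozygous animals, its SNP G31759228A had a lowest, median and highest alternate share of 0.741, 0.860 and 0.899. The share of the higher allele at the farthest member was 0.877 in both IGF2R and PFKL, 0.868 in RABGGTB and 0.853 in RPL13A, and these genes are described below.

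**Figure D2:**
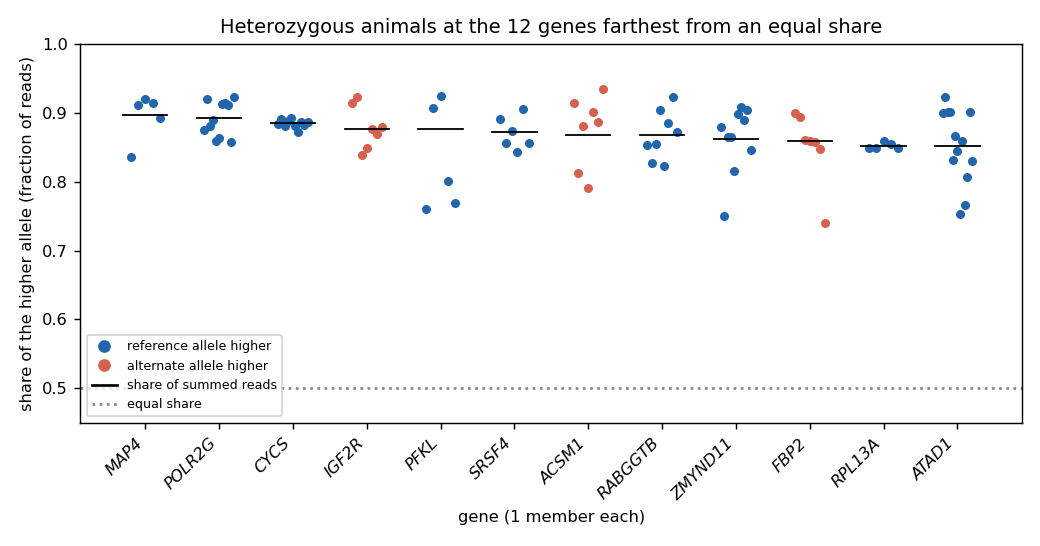
Share of the higher allele in each heterozygous animal with at least 20 reads (points) at the farthest member of the 12 genes farthest from an equal share. The black bar is the share of the summed reads, and every point lies above the dotted line of an equal share.

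Single animals mostly followed the summed share. Among 3464 values of heterozygous animals with at least 20 reads, 118 lay on the other side of an equal share. No animal was on the other side at 318 members, 1 animal was at 51 members and 2 or more animals were at 26. Each animal was heterozygous at 177 to 210 members (median 193.5), and its median share of the higher allele was between 0.692 (RS902) and 0.750 (RS926). The share of its values on the other side was lowest in RS933 (0.538%) and highest in RS943 (7.28%). The side follows from the selection on the summed share, and is therefore a description.

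The spread of heterozygous animals around the summed share was not used by the rule. The allele reads differed between heterozygous animals beyond counting error at 148 of 395 members in 90 genes (37.5%, Pearson chi-square, Benjamini-Hochberg adjusted over all autosomal SNPs), against 14.8% of all 23963 autosomal SNPs tested. The median dispersion was 1.94 at members and 1.40 over all autosomal SNPs. The part of the higher read number per animal at members in this difference was not tested. The other 247 members had a median dispersion of 1.37.

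PFKL, the liver-type phosphofructokinase of glycolysis, had the largest dispersion, 260 at C262427435T on chromosome 1. RS910 had 330 reference and 1029 alternate reads, a share of 0.243. The share was 0.407 in RS953, 0.455 in RS943, 0.691 in RS902, 0.751 in RS969, 0.817 in RS947, 0.893 in RS926 and 0.898 in RS937. Heterozygous animals thus fell on both sides at the same SNP. Over the 16 members of PFKL, 40 of 134 animal values were on the other side of an equal share. Outside PFKL, 132 of 379 members (34.8%) were called for heterogeneity.

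TFPI2 encodes a secreted inhibitor of serine proteases found in the extracellular matrix, and its member C11089206T (chromosome 4) had a dispersion of 162. The alternate share was 0.545, 0.550, 0.576, 0.607 and 0.620 in RS930, RS933, RS918, RS943 and RS919. It was 0.790, 0.814, 0.830, 0.843 and 0.854 in RS920, RS910, RS953, RS902 and RS926, and 0.871 in both RS940 and RS969. No animal lay between 0.620 and 0.790, and the alternate allele was higher in all 12.

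MARC2, a molybdenum-containing reductase of the mitochondrial outer membrane, had a dispersion of 35.0 at T22383494C on chromosome 12. RS910 had a reference share of 0.439, and the other 8 heterozygous animals lay between 0.693 and 0.819. NDUFV1, a core subunit of respiratory complex I, had a dispersion of 21.9 at C44748018T on chromosome 21, where RS940 had 0.607 and the other animals 0.722 to 0.743. Its second member, A44748012G, lies 6 bp away and ranged from 0.667 to 0.714 in 11 animals with a dispersion of 2.54.

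Of the 259 genes, 195 had 1 member, 40 had 2, 11 had 3, and 13 had 4 or more. The last group held 87 members. Its genes allow the same animals to be followed over several SNPs, and the spread between animals was unequal among these genes.

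**Figure D3:**
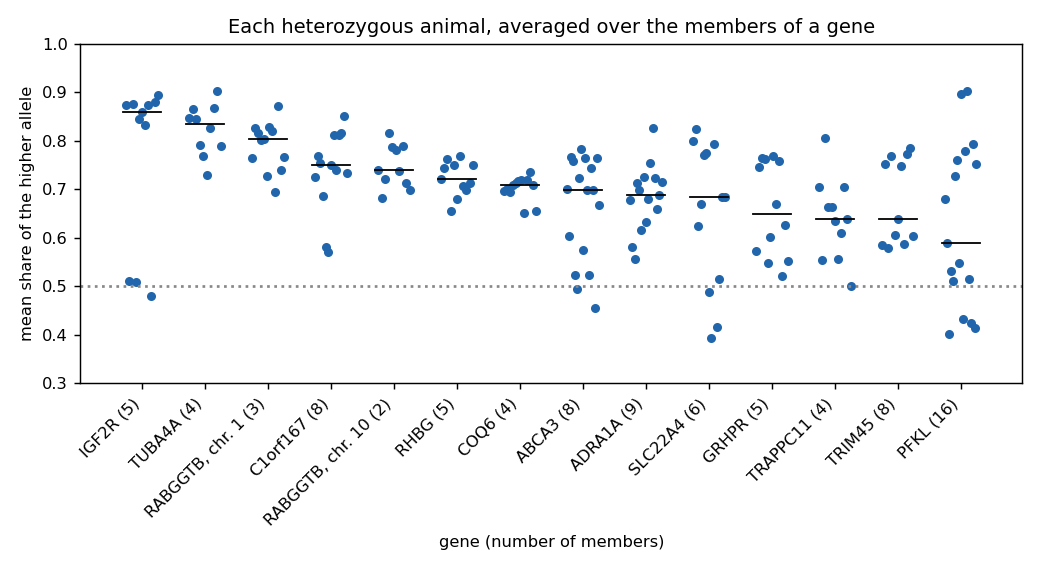
Mean share of the higher allele over the members of a gene, for each animal with at least 1 heterozygous member of at least 20 reads (points), in the 13 genes with 4 or more members. The black bar is the median of the animals and the dotted line an equal share. SNPs on opposite sides cancel in such a mean. In IGF2R, RS903, RS920 and RS943 lie at 0.511, 0.510 and 0.481, although the larger allele made up at least 0.811 of the reads in every IGF2R value. COQ6 animals lie within 0.652 to 0.735, whereas PFKL animals spread from 0.401 to 0.904.

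COQ6, a monooxygenase of coenzyme Q synthesis, had 4 synonymous members within 1983 bp on chromosome 7, and the same 12 animals were heterozygous at each. The mean reference share over the 4 SNPs was 0.652 in the lowest animal (RS929), 0.709 in the median and 0.735 in the highest (RS937). No value of the 48 was on the other side. RHBG, an ammonium transporter, had 5 members over 11864 bp of chromosome 1 and animal means of 0.655 to 0.770 in 11 animals. TUBA4A, an alpha-tubulin of microtubules, had 4 members within 1319 bp of chromosome 2 with animal means of 0.730 to 0.904 in 10 animals, 1 member being reference-high and 3 alternate-high.

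ABCA3 (a lipid transporter, 8 members, chromosome 24), SLC22A4 (an organic cation and ergothioneine transporter, 6 members, chromosome 5), GRHPR (glyoxylate reductase, 5 members, chromosome 2) and TRIM45 (a tripartite motif protein, 8 members, chromosome 1) had wider animal means. They spanned 0.456 to 0.784, 0.394 to 0.824, 0.521 to 0.770 and 0.580 to 0.785. These means rest on differing sets of members between animals. In ABCA3 the lowest mean (RS947) came from 3 members, and animals with values at all 8 had 0.724 to 0.784. In SLC22A4 the lowest mean (RS930) came from 4 members, and animals with values at all 6 had 0.670 to 0.824. In TRIM45, RS903, RS917, RS930, RS947 and RS953 were heterozygous at all 8 members and had means of 0.748 to 0.785. The other 6 animals were heterozygous at 4 members and had means of 0.580 to 0.639. ADRA1A (the alpha-1A adrenergic receptor, 9 members, chromosome 2) and TRAPPC11 (a vesicle tethering protein, 4 members, chromosome 26) ranged from 0.556 to 0.826 and from 0.5004 to 0.806.

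IGF2R encodes the receptor that takes up insulin-like growth factor 2 for degradation, and it is a classical imprinted gene in mammals. It had 5 members over 38666 bp of chromosome 8. Whichever allele was the larger, it made up between 0.811 and 0.923 (median 0.875) of the reads in all 34 animal values. At A82949048G, a missense SNP with 4 reference and 6 alternate homozygotes, RS902, RS920, RS937, RS940, RS947 and RS953 carried 0.812 to 0.906 reference reads, whereas RS903 and RS943 carried 0.098 and 0.121. At C82910382T, RS920 carried 0.113 reference reads and the other 5 animals carried 0.841 to 0.923. Thus the higher allele was not the same in all animals. Total reads differed by genotype at none of the 5 members (slopes of -0.14 to 0.23 log2 CPM per copy of the higher allele, lowest adjusted p = 0.255).

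GRB10, an adaptor that dampens insulin receptor signalling and is imprinted in mammals, had 3 members on chromosome 4. The higher-allele share was 0.647 to 0.716 in 6 animals at G5265443A, 0.667 to 0.821 in 8 at C5280671T, and 0.682 to 0.852 in the same number at C5293396T. Every animal was on the same side at each SNP, and 1 class of homozygotes was missing at each. Slopes of total reads were -0.18, -0.01 and 0.08 log2 CPM per copy of the higher allele (adjusted p of 0.606, 0.972 and 0.845). NAP1L4, a histone chaperone beside an imprinted cluster in mammals, had 1 member (C47882187T, chromosome 21) with reference shares of 0.613 to 0.729 in 10 animals. It was the only member of these genes whose total reads passed by genotype. Its medians were 44.8 CPM in heterozygotes and 35.5 CPM in alternate homozygotes, and 61.6 and 60.1 CPM at other SNPs. IGF2R, GRB10 and NAP1L4 were the only 3 member genes among 11 genes of the imprinted list with a clean SNP. The list held 49 genes, and imprinted genes outside it were not counted.

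The common sire restricts what genotypes can occur. Genotypes were called from the same RNA reads, so a heterozygous animal with few reads of an allele could be called homozygous. How often this occurred was not tested. Where the calls are right, a homozygous fetus received that allele from the ram. With both classes of homozygotes, the ram then transmitted either allele. Both classes were called at 163 members (41.3%) and at 43.9% of the clean SNPs inside the limits. At 126 of the 163, no heterozygous animal lay on the other side of an equal share. At 175 members no animal was homozygous for the alternate allele, and at 57 none was homozygous for the reference allele. At these members the effect of the allele and of the parent it came from cannot be told apart.

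The question whether the higher allele also goes with more reads between animals was tested with the total reads of both alleles at each SNP. The genotypes are those called from the same RNA reads. The slope is the change in log2 CPM per copy of the higher allele, from a linear model with limma-moderated variance, adjusted over all autosomal SNPs tested. In this bulk tissue, a change in the number of cells of a type and in the RNA per cell cannot be told apart. The slope was above 0 and passed an adjusted p of 0.05 at 161 of 395 members in 122 genes (40.8%), against 3.91% of 22312 autosomal SNPs, and no member passed in the other direction. The median slope was 0.44 at members and 0.066 over all autosomal SNPs. At 120 members with 2 or more animals in both homozygote classes, the class of the higher allele had more reads at 118, against 70.1% of 6321 clean SNPs inside the limits. The homozygote classes did not overlap at 83 of them (69.2%), against 11.3% of the same comparison SNPs. The median log2 difference between these homozygotes was 1.00, and the median log2 allele ratio within heterozygotes was 1.12.

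In heterozygous animals the reads at a SNP are those that gave the share. The model was therefore repeated with the reads of all other SNPs of the same gene at least 1000 bp away, some of which were members themselves. Such reads existed for 318 members. The slope was above 0 with an adjusted p under 0.05 at 56 (17.6%) in 33 genes, against 2.63% of 18646 autosomal SNPs, and its median was 0.19 against 0.029. The slope at the SNP and at other SNPs had the same sign at 258 of the 318. Of 117 members called at the SNP itself, 43 (36.8%) were also called at the other SNPs, against 136 of 596 other autosomal SNPs called at the SNP (22.8%), and the median slope was 0.62 at the SNP and 0.22 at the others.

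Members were also described by the side of the higher allele. The median slope at the SNP was 0.44 where the reference allele was higher and 0.45 where the alternate allele was higher. At the other SNPs it was 0.16 and 0.42, with 34 of 246 and 22 of 72 members called. Among members called at the SNP, 26 of 96 reference-high and 17 of 21 alternate-high members were called at the other SNPs as well. The shares among other autosomal SNPs called at the SNP were 20.5% where the reference allele was higher and 33.0% where the alternate allele was higher. The difference between both sets was not tested, and members of the same gene share reads.

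**Figure D4:**
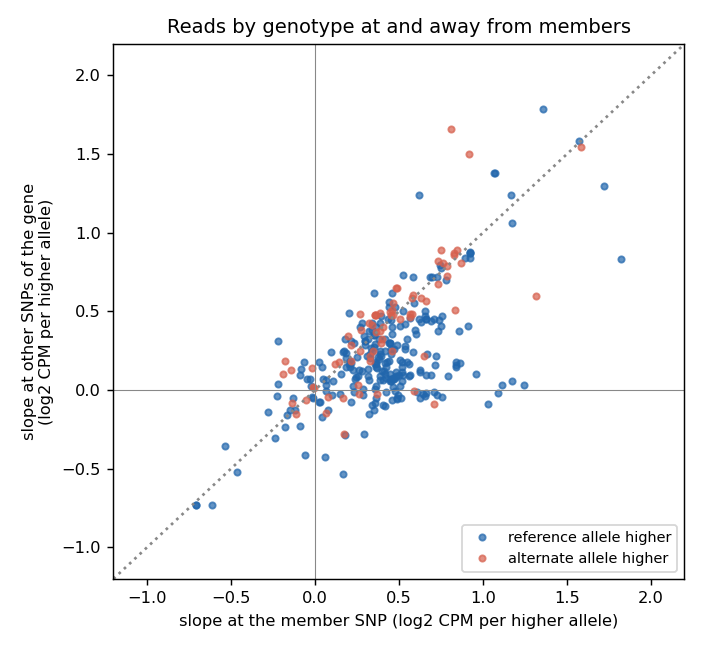
Slope of log2 CPM per copy of the higher allele at the member SNP (x axis) and at the other SNPs of its gene at least 1000 bp away (y axis) for 318 members. Points on the dotted line have equal slopes. Reference-high members (blue) extend along the horizontal line at 0 more than alternate-high members (red), with median y values of 0.16 and 0.42.

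TUBA4A moved at the SNP and away from it. At G220177234A, the 3 reference homozygotes had 12.04, 25.6 and 37.7 CPM. Heterozygotes had 48.0 to 184 CPM (median 111) and the 5 alternate homozygotes 171 to 363 CPM (median 201). The homozygote classes did not overlap, and the slope was 1.58 ± 0.20 (SE) per copy of the higher allele (adjusted p = 2.29e-05). At its other SNPs, the class medians were 48.7, 205 and 340 CPM, with a slope of 1.55 (adjusted p = 0.000644). These reads included those at another member of the gene, 1319 bp away, with medians of 23.1, 99.6 and 168 CPM in the same classes.

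COQ6 showed the same at a smaller size. At G82268283A, 5 reference homozygotes had 69.6 to 84.2 CPM, 12 heterozygotes 48.4 to 73.8 CPM and the lone alternate homozygote 46.2 CPM, giving a slope of 0.38 ± 0.08 (adjusted p = 0.00411). At other SNPs of the gene the medians fell in the same order, from 219 through 163 to 139 CPM, with a slope of 0.32 (adjusted p = 0.0145). Those SNPs included the member C82266703T, whose own class medians were 121, 86.7 and 73.0 CPM. C1orf167, whose function is little known, had slopes of 1.36 at G40024066A on chromosome 12 (adjusted p = 5.27e-05) and 1.79 at its other SNPs (adjusted p = 0.00271). Of its 13 SNPs in the table, 8 were members.

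ABCA3 (0.87 at G1801661A, 0.81 at other SNPs), SLC22A4 (0.73 at A19646207G, 0.67 at other SNPs) and PFKL (0.92 at G262418637A, 0.84 at other SNPs) also passed in both models, with adjusted p between 0.000907 and 0.0305. All 8 SNPs of ABCA3 in the table were members, so that its other SNPs were chosen by the same share limits. In SLC22A4 and PFKL, 6 of 10 and 16 of 19 SNPs were members. In PFKL, 3 of 16 members passed at the SNP and 2 at other SNPs, the slope was above 0 at 12, and G262418637A lost its call in a quasi-Poisson test (adjusted p = 0.0853). GRHPR, TRAPPC11 and ADRA1A passed at 1, 1 and 2 members (adjusted p from 0.0324 to 0.0459), and none of these members passed at the other SNPs. Without RS902 all 3 genes lost the call of the member with the smallest adjusted p (0.0812 for ADRA1A, 0.076 for GRHPR and 0.057 for TRAPPC11), and without RS929 GRHPR (0.058) and TRAPPC11 (0.0587) did. A pair of other TRAPPC11 members passed at the other SNPs only, with slopes of 0.49 (adjusted p = 0.000751) and 0.48 (adjusted p = 0.00106). RHBG and TRIM45 had no member that passed. Other genes with both models called, chosen here after their values were seen for the smallest adjusted p at other SNPs, were ETAA1 (0.45 at C40776143A and 0.48 at other SNPs, adjusted p = 1.26e-05) and FUK (0.32 at A1033489G and 0.38, adjusted p = 2.34e-05). ETAA1 is an activator of the ATR kinase and FUK is fucokinase.

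Several of the smallest adjusted p-values at the SNP itself had no such counterpart. COL6A2 encodes a chain of collagen VI. At C263962753T on chromosome 1, the 6 reference homozygotes had 55.2 to 91.0 CPM, the 6 heterozygotes 31.4 to 77.6 CPM and the 6 alternate homozygotes 10.7 to 18.995 CPM. The slope was 1.09 ± 0.10 (adjusted p = 3.14e-07). At the other SNPs of COL6A2 the class medians were 234, 232 and 233 CPM, with a slope of -0.018 (adjusted p = 0.939).

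RXRB, a retinoid X receptor, had 21.5, 14.6 and 5.18 CPM as class medians at G7483407A in its 3′ untranslated region on chromosome 20, with a slope of 1.03 (adjusted p = 6.85e-07). At its other SNPs the medians were 42.3, 45.5 and 47.7 CPM and the slope was -0.091 (adjusted p = 0.287). Its second member, C7483295A, was alternate-high. CAP1, an actin-binding protein, had a slope of 0.66 at A14440760C on chromosome 1 (adjusted p = 2.82e-07) and -0.018 at other SNPs. PPHLN1 had 1.17 at G144316484T on chromosome 3 (adjusted p = 7.85e-08) and 0.058 at others. POLR2G had 1.25 and 0.033, and MAP4 had 0.76 and -0.043. The difference between the slope at the SNP and that at the other SNPs was not tested. CAPZA2, an actin capping protein, had a slope of 1.39 at T51428699C on chromosome 4 (adjusted p = 7.92e-08) and had no other SNP to compare.

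**Figure D5:**
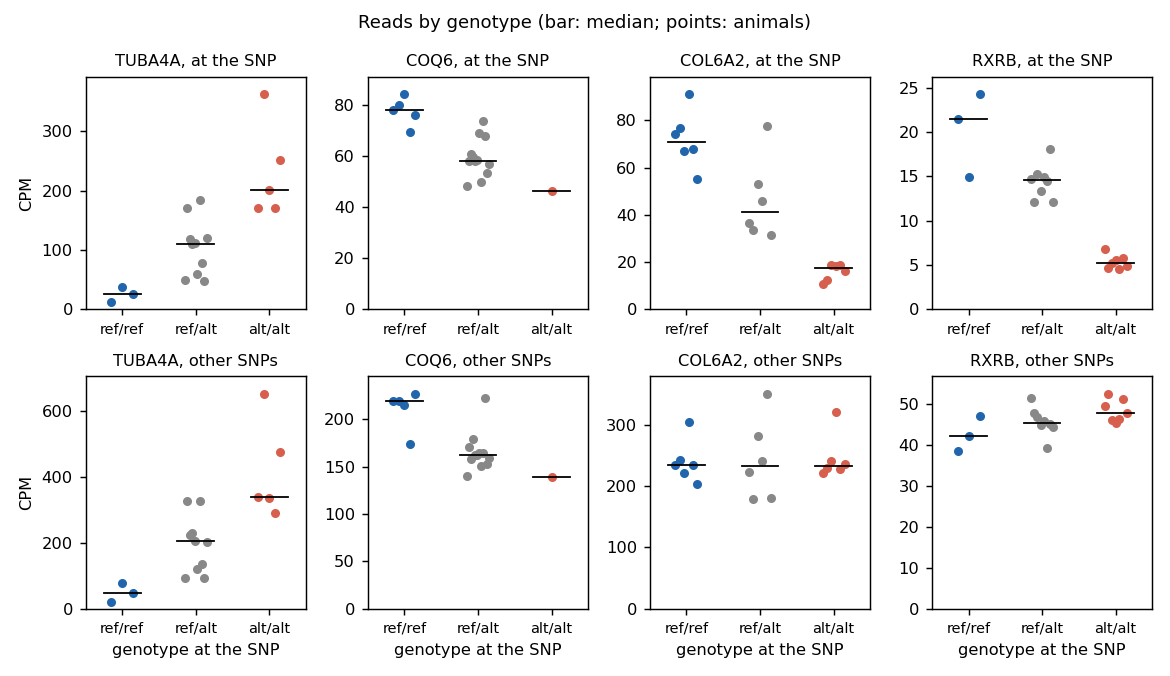
CPM of each animal (points) by genotype at 1 member of TUBA4A, COQ6, COL6A2 and RXRB. The upper panels count the reads at the SNP and the lower panels those at the other SNPs of the gene at least 1000 bp away, and bars are class medians. TUBA4A and COQ6 differ by genotype in both rows, and their lower panels include reads at another member of the gene. The medians of COL6A2 in the lower row are 234, 232 and 233 CPM.

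Members in genes with copies elsewhere are uncertain, because the table cannot assign their reads to a copy. The RefSeq annotation of the Rambouillet assembly (ARS-UI_Ramb_v3.0) places the gene of the same symbol on another chromosome for 9 of 345 members whose symbol it holds (2.61%), against 37 of 17827 clean SNPs inside the limits (0.208%). The 9 were in RABGGTB, HSPD1, MTA3, RPS23, RPS3A, CRIPT and RPL13A. All 9 were reference-high and 8 passed the test of reads by genotype. This check, and the following one, were chosen after the values were seen.

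RABGGTB, a subunit of the enzyme that adds lipid anchors to Rab proteins, had members on chromosome 1 and on chromosome 10. At G51396974A (chromosome 1) and A51536363G (chromosome 10) the same 8 animals were heterozygous, and each animal homozygous for the reference allele at one SNP was homozygous for the alternate allele at the other. The pair C51402756T and A51536132G did the same. With 4, 8 and 6 animals in the classes at A51536363G, the medians were 50.4, 27.7 and 11.1 CPM without overlap, and the slope of 1.10 ± 0.07 had the smallest adjusted p of all members (3.33e-10). At G51396974A the classes of 6, 8 and 4 animals had 16.4, 11.2 and 6.52 CPM. The sum over both SNPs had medians of 28.1, 38.8 and 56.9 CPM in these classes.

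Such mirrored calls on another chromosome occurred at 6 of the 120 members with both homozygote classes (5.00%) and at 10 of 6321 clean SNPs inside the limits (0.158%). Besides the 4 members of RABGGTB they were T43017676C of RPS23 on chromosome 3 and G3677978A of HSPD1 on chromosome 11. The calls of RPS23, a ribosomal protein of the small subunit, mirrored those of 2 SNPs of ATG10 on chromosome 5. In the RefSeq annotation, 3 genes separate RPS23 from ATG10. The calls of HSPD1, the mitochondrial chaperonin, mirrored 4 SNPs of COQ10B on chromosome 2, and 1 gene separates the pair in that annotation. RPS23 had class medians of 570, 358 and 111 CPM and a slope of 1.20 (adjusted p = 6.7e-08). Whether reads of another copy contribute to these shares was not tested.

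Imbalance in the member genes outside the members themselves was tested with animals as replicates. Of 952 SNPs in 182 genes that were no members and lay at least 1000 bp from every member of their gene, 339 (35.6%) departed from an equal share (moderated quasi-binomial F test, adjusted p under 0.05), against 24.9% of 23937 autosomal SNPs and 22.3% of 22030 SNPs in genes without a member. Their median share of the higher allele was 0.550, against 0.532 in genes without a member. At 200 bp or more it was 38.8% of 1251 SNPs, and at 5000 bp or more 30.5% of 632. Counting each gene once per chromosome, 31 of 261 member genes had no other SNP in the table, and in 13 of the other 230 all SNPs were members.

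The functional lists were drawn up with earlier results of these data in view, so that their counts describe where members lie and do not show enrichment. Overall 259 of 5432 genes with a clean SNP held a member (4.77%), and list genes are counted below among those with a clean SNP. The counts of members whose reads rose with the higher allele are to be read against 40.8% of all members at the SNP and 17.6% at other SNPs.

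Of the genes of mitochondrial fuel oxidation, 15 of 53 held 20 members, 18 of them reference-high. Reads rose with the higher allele at 13 of the 20 and at other SNPs for 5 of 12, of which 4 were COQ6 members that share the same heterozygous animals and 1 was in ACSF2, with a median slope at the SNP of 0.56 against 0.44 for all members. CYCS passed at its SNP (slope 0.77 ± 0.11, adjusted p = 7.66e-05) but had no other SNP of the gene to compare. NDUFV1 passed at A44748012G (0.56, adjusted p = 4.78e-05) but had 0.091 at its other SNPs (adjusted p = 0.642). ACSF2, an acyl-CoA synthetase, had reference shares of 0.634 to 0.690 in 6 animals at G35807754A on chromosome 11, with slopes of 0.59 at the SNP (adjusted p = 0.00037) and 0.55 at other SNPs (adjusted p = 0.00353). PDK4, the kinase that shuts down pyruvate dehydrogenase, was named outside the rule and had a share of 0.654 and a slope of 0.57 that did not pass (adjusted p = 0.385).

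Lipid synthesis, storage and transport had 9 of 38 genes with 18 members, 10 of them alternate-high. Reads rose with the higher allele at 9. PNPLA3, a lipid droplet hydrolase, had alternate shares of 0.574 to 0.859 in 7 animals at the missense SNP T218656000C on chromosome 3, and slopes of 0.79 (adjusted p = 0.000166) and 0.73 at other SNPs (adjusted p = 0.00106). GPIHBP1, the endothelial anchor of lipoprotein lipase, had reference shares of 0.627 to 0.901 in 14 animals at its missense SNP, with a slope of 0.52 at the SNP (adjusted p = 0.0138) and 0.15 at others (adjusted p = 0.677). ME1, the cytosolic malic enzyme that makes NADPH, had 0.603 to 0.745 in 6 animals and a slope of 0.19 (adjusted p = 0.238). Glycolysis and gluconeogenesis had only PFKL and FBP2 among 17 genes, with 16 and 2 members. FBP2 had slopes of 0.32 and -0.14, neither of which passed.

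Amino acid, one-carbon and cofactor metabolism had 13 of 26 genes with 23 members, and reads rose with the higher allele at 11. ODC1, the first enzyme of polyamine synthesis, had reference shares of 0.822 to 0.861 in 12 animals at A19479349G on chromosome 3, with a dispersion of 0.456. Its slope was 0.46 at the SNP (adjusted p = 0.0191) and -0.065 at other SNPs (adjusted p = 0.843). Extracellular matrix genes had 10 of 46 with 16 members, 15 of them reference-high. FBLN2 (fibulin 2) had 3 members on chromosome 19 with slopes of 0.63, 0.55 and 0.60, of which the first and the last passed, and none passed at other SNPs (adjusted p of 0.217, 0.349 and 0.159). COL5A3 (a collagen V chain) had 0.44 at the SNP (adjusted p = 0.0251) and 0.30 at others (adjusted p = 0.105). Of 14 members of the list with other SNPs, 1 passed there. It was in SPOCK2, a proteoglycan (0.86 at the SNP, adjusted p = 1.68e-06, and 0.38 at others, adjusted p = 0.0277), which is named for that reason.

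Cytosolic ribosomal proteins had 5 of 20 genes with 8 members. All 8 were reference-high and reads rose with the reference allele at all 8. Other SNPs existed for 2 of them, both in RPL13A on chromosome 14, where the slope of 0.089 did not pass (adjusted p = 0.749). RPS3A had shares of 0.740 to 0.768 at C192371760T and 0.795 to 0.814 at T192372078C on chromosome 3, from up to 59856 reference reads. RPL13A had 0.849 to 0.859 at T54973969C on chromosome 14 but 0.653 to 0.664 in the same 5 animals at C54974261T, 292 bp away. The same 5 animals were heterozygous at its member on chromosome 9. The other 13 were called reference-homozygous on chromosome 14 and alternate-homozygous on chromosome 9. Medians in homozygotes and heterozygotes were 959 and 550 CPM at T54973969C, and 1312 and 1965 CPM on chromosome 9. The count of mirrored calls left out such SNPs with a single homozygote class. RPS27A, a ubiquitin fusion protein, had 0.732 to 0.782 in 9 animals at its missense SNP G68706092C and class medians of 618, 416 and 194 CPM. These genes have many copies in mammalian genomes and their shares are uncertain.

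Cytoskeleton and adhesion genes had 13 of 27 with 18 members, and reads rose with the higher allele at 10. ACTN4 (an actin crosslinker) had alternate shares of 0.636 to 0.751 in 7 animals and a slope of -0.01 (adjusted p = 0.974). RHOU, a small GTPase, had a slope of 0.65 at A62666G on chromosome 25 (adjusted p = 0.00268) and of -0.44 at A62501C (adjusted p = 0.143). Membrane transporters and channels had 9 of 16 genes with 19 members, of which 5 passed, among them SLC25A34 (0.56, adjusted p = 0.0072) and PIEZO1, a mechanosensitive channel (0.40, adjusted p = 0.0426).

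Immune and complement genes had 9 of 24 with 19 members, of which 3 passed. BTNL9, a butyrophilin-like protein, had 0.59 at the SNP (adjusted p = 0.000288) and 0.24 at others (adjusted p = 0.0815). TRYPTASE-1, a mast cell protease, had 2 alternate-high members on chromosome 24 with slopes of 0.07 (adjusted p of 0.896 and 0.889). HBBB, a beta-globin, had 3 reference-high members on chromosome 15 with shares of 0.604 to 0.817 in 11 animals, none of which passed. The mean level over all HBBB SNPs varied from 13.98 to 230 CPM between animals (median 93.5). How far blood content bears on the HBBB shares was not tested.

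Missense changes made up 72 members, and reads rose with the higher allele at 26, beside 161 of all 395 members, a difference that was not tested. Those with the most reads were in RPS27A, HBBB, C1orf167, TRYPTASE-1, CYP2B6 and GPIHBP1. CYP2B6, a drug-metabolising cytochrome, had reference shares of 0.514 to 0.844 in 11 animals at T49547232G on chromosome 14 and a slope of -0.47 (adjusted p = 0.604). C1orf167 had 6 missense members among its 8. At other SNPs of the same gene, 15 of 61 missense members, 37 of 192 synonymous members and 1 of 50 members in 3′ untranslated regions were called.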

How the data were processed

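Per the study's methods, the authors used STAR to map read pairs (sheep genome Oar v3.1). Genotypes were called from these RNA reads with GATK (version 3.4-46 in the submitters' processing notes). The authors kept SNPs in Ensembl genes and outside known repeats, with a minimum number of reads of both alleles in 5 or more heterozygous animals. The deposited table holds, per SNP and animal, raw reference and alternate read counts and a genotype call. A missing count was taken as 0. Count columns named PS910 were taken as animal RS910, since no other sample title holds 910. Its columns of a chi-square statistic, a p-value, the higher allele and the share of reads to the reference are the authors' comparisons and were not used. Samples form 1 group, fetal PRAT. Replicates are separate fetuses.

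Shares were computed from the counts. Heterogeneity between heterozygous animals was tested by Pearson's chi-square. Reads by genotype were tested on log2 CPM (prior count 0.5, TMM library sizes from edgeR 4.0.16) in SNPs with 2 or more animals in at least 2 genotype classes, with variances moderated by limma 3.58.1 in R 4.3.3, because the regressor differs at each SNP and 1 edgeR design could not be fitted. Imbalance was tested with a moderated quasi-binomial F test in SNPs heterozygous in 3 or more animals. All p-values are two-sided or from chi-square and F tests and were Benjamini-Hochberg adjusted over all autosomal SNPs tested; the threshold was 0.05. The tests were checked on simulated counts. Dispersions set the spread between animals against counting error. They treat reads as independent molecules, which could not be checked, since molecular identifiers are not described. The SD values after ± rest on the spread between animals, and the SE values on that spread after moderation across SNPs.

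The members, gene lists and tests were chosen with earlier results of these data known. Genes were named by rule: those with 4 or more members, the 12 farthest from an equal share, up to 3 per list with the most reads and all imprinted ones, the 8 with the smallest adjusted p for reads by genotype, the 6 with the largest dispersion, the SNPs next to each limit, and up to 6 missense members. Positions are those of the deposited table. RefSeq symbols were matched for 345 members. 1 gene that the rule names is not reported here.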

Additional observations from a re-analysis of the deposited data

Results flagged for a closer look

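At the farthest member of each named gene, heterozygous animals with at least 20 reads were checked for a single animal far from the others by Dixon's ratio, which chance exceeds in about 1 of 20 groups of this kind. Of 35 members with 4 to 10 such animals, 4 had one. At FBP2 on chromosome 2, RS947 had an alternate share of 0.741 and the nearest of the other 6 animals 0.848. At RPS23 on chromosome 3, RS917 had a reference share of 0.899 and the nearest animal 0.822. At PPHLN1 on the same chromosome, RS930 had 0.767 against 0.817. At NDUFV1 on chromosome 21, RS940 had 0.607 against 0.722, from 1378 reads.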

How the results depend on the processing

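The number of members ranged from 279 (no other SNP within 50 bp) to 395 over the alternatives, and limits centred on the median autosomal share of 0.518 gave 364, of which 319 were members in the main rule and 221 reference-high. Counts for heterogeneity (132 to 150), sire alleles (154) and imbalance at other SNPs (30.5% to 38.8%) stayed within 1.5 times the main value. Reads by genotype were called at 115 to 166 members, 115 being with 1 member per gene (of 259), and at 145 and 149 without RS929 and RS902. Only the reads of other SNPs moved the count further, to 56 of 318, of which 43 were also called in the main analysis. There the slopes of CAP1 (-0.018), COL6A2 (-0.018) and RXRB (-0.091) turned sign. Of 147 values for single named members, 131 kept their call, 13 lost it and 3 turned. Without RS902, the adjusted p rose to 0.0812 for ADRA1A, 0.076 for GRHPR and 0.057 for TRAPPC11, and without RS929 to 0.058 for GRHPR and 0.0587 for TRAPPC11. A quasi-Poisson test gave 0.0853 for PFKL, 0.0739 for GRHPR and 0.0779 for TRAPPC11, and sex as a covariate gave 0.0519 for GRHPR. The cause was not tested. The alternatives on PFKL, on copies and on 1 member per gene were added after the data were seen. No paired analysis was possible because all samples form 1 group. Shares in animals with few reads are limited by depth.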

Other observations

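On the X chromosome, which the rule left out, 160 SNPs met its other conditions and 6 SNPs in 5 genes also passed the share limits. Among members, 1 passed in the other direction at the other SNPs of its gene. At A38477917T of IST1 on chromosome 14, a component of the membrane-remodelling ESCRT machinery, the reference share was 0.827 in 11 animals. The slope per copy of the reference allele was 0.17 at the SNP (adjusted p = 0.317) and -0.53 at the other SNPs (adjusted p = 0.0144, limma). It was chosen after its value was seen.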
